A study of Homo sapiens with 18 samples.

Results

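The comparison described here is the difference in the expression response to 5-fluorouracil (5-FU) between the hepatocellular carcinoma cell lines Huh1 and Huh7, in a series that set disulfiram (DSF) beside 5-FU. It used 12 of the 18 arrays of the series, namely the control and 5-FU arrays of both lines, with 3 arrays in each of the 4 groups; the 6 arrays of DSF treatment were left out of the fit. Cells of each line were cultured with 1 µM 5-FU for 48 hours or served as controls, for which the labels name no agent or vehicle. EpCAM+ cells were sorted by flow cytometry, and their total RNA was hybridized to Agilent one-color expression arrays. No genetic change was introduced in either line, each group consists of a single established line, and the triplicates are described as independent experiments. For each gene, the line difference is the change after 5-FU in Huh7 minus the change after 5-FU in Huh1, both on a log2 scale. A positive value therefore means a higher change in Huh7, and a negative value a higher change in Huh1.

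5-FU is a pyrimidine analog. Its metabolites block thymidylate synthase, which starves DNA synthesis of thymidine nucleotides, and they are also built into RNA and DNA. Cells answer such damage through p53 target genes and replication checkpoints. A separate program, the integrated stress response, works through the transcription factor ATF4, which induces genes of amino acid synthesis, amino acid transport and tRNA charging as well as the death-associated factor DDIT3.

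Signals are given as log2 intensity relative to the 75th percentile of the same array, so that a rise or fall is relative to the bulk of the transcripts on that array. A probe was called when its Benjamini-Hochberg adjusted p in the limma fit was under 0.05. The words rose and fell are used only where that test was passed, and the other log2 changes are given as estimates. On this scale 10027 of 29033 probes tested (34.5%) were called for the line difference, 5174 higher and 4853 lower. By the brightest probe of each gene, 6263 of 15519 genes (40.4%) were called, 3423 (22.1%) higher and 2840 (18.3%) lower. 5-FU itself was called for 46.9% of probes in Huh1 and 57.0% in Huh7, in the latter 29.8% lower. By genes it was called for 8147 (52.5%) in Huh1, with 24.4% higher and 28.1% lower, and for 9670 (62.3%) in Huh7, with 32.0% higher and 30.3% lower. The line difference was at least 2-fold for 1044 genes in the higher direction and 1010 in the lower direction, and at least 8-fold for 127 and 75 genes. Over the called probes its median size was 0.763, against a median standard error of 0.178 over all probes.

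Some facts of the arrays bear on these counts. All Huh1 arrays of the 4 groups lay on a single slide and all Huh7 arrays on another, so line and slide cannot be told apart, although control and 5-FU of a line shared a slide. The control arrays lay in row 1 of their slide and all Huh7 5-FU arrays in row 2, so that row and treatment cannot be told apart in Huh7; in Huh1, 1 of the 3 5-FU arrays lay in row 1. Replicates correlated at 0.989 to 0.9971 over the tested probes, and 59.87% to 68.72% of the probes of an array were well above background. The median log2 difference between replicates was 0.073 in Huh7 controls and 0.18 in Huh7 5-FU arrays. Standard errors and p-values measure this spread between arrays. In Huh1 5-FU arrays, replicates 2 and 3 read close together and apart from replicate 1 for some genes. FBP1 read 1.59, -0.28 and -0.27 there and TTR 5.22, 4.36 and 4.38, but ALB read 8.31, 8.21 and 8.31. Without replicate 1 of this group, 10691 probes were called for the line difference. Without replicate 2 or 3 of it, 8559 and 8414 were called. Whether the spread between arrays holds the full spread between independent cultures was not tested. If it does not, the standard errors are too small. All 10 liver tumor markers, among them ALB, AFP and EPCAM, were well above background on every array.

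The scale matters for the direction within a line. Measured against 7 spike-in probes, the 75th percentile stood 0.83 higher after 5-FU in Huh1 and 0.98 higher in Huh7. On a spike-in scale the median change of all probes moved to 0.797 in Huh1 and 0.941 in Huh7, and 98.1% and 95.4% of the 5-FU calls were higher, compared with 45.2% and 47.7% on the 75th percentile scale. For the line difference the median moved to 0.141, and 67.8% of its calls were higher, against 51.6%. A normexp background correction gave 30.0% higher calls in Huh1 and 36.1% in Huh7, and testing all probes without a filter gave 33.9% in Huh1. Directions within a line are stated relative to the array's bulk throughout.

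Of 5823 genes called for 5-FU in both lines, 4943 changed in the same direction and 880 in opposite directions. The line difference was called for all 880 of the latter. This follows from their opposite called changes, of which it is the difference, and is not a separate result. It was called for 1611 of the former. Of these 1611, 1130 changed more in Huh7 and 356 more in Huh1, and the rest fell in the classes limited to a line or dim in the other line that are defined next. Genes were termed opposed when called in both lines with opposite signs, at least 1.5-fold in each, and called for the line difference. A gene was termed limited to a line when it changed at least 2-fold there, the line difference was called, and the 95% interval of its change in the other line stayed within 1.5-fold either way.

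**Figure D1:**
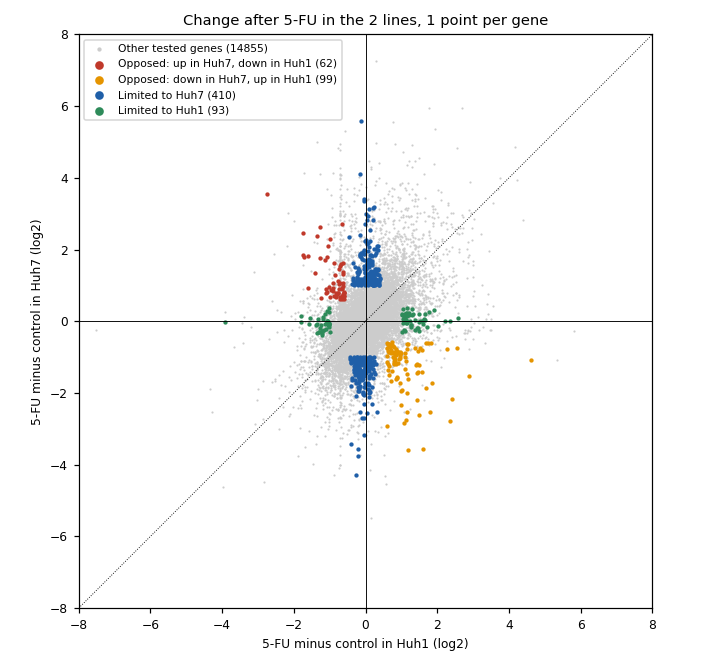
Change after 5-FU in Huh1 (x axis, log2) and in Huh7 (y axis, log2) for each of 15519 genes by its brightest tested probe; the dotted line marks equal change. The 62 and 99 opposed genes lie in the upper left and lower right quadrants, and the 410 genes limited to Huh7 and 93 limited to Huh1 lie along the axes.

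By this definition 161 genes (62 up in Huh7 and down in Huh1, 99 down in Huh7 and up in Huh1) were opposed, which is 0.4% and 0.638% of the genes tested. The first set had median changes of 0.93 in Huh7 and -0.79 in Huh1. The second set had median changes of -1.02 in Huh7 and 0.91 in Huh1. Of the 161 genes, 48 and 67 of the 2 sets were well above background on all 12 arrays. On the spike-in scale, where almost all changes are shifted upward, 3 of the 62 and 20 of the 99 genes remained opposed, and after normexp 99 genes were opposed in all. Without replicate 2 or replicate 3 of Huh1 5-FU the first set numbered 41 and 38. Over all fits that left out an array, the first set numbered 38 to 91 and the second 81 to 122.

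Among the genes that fell in Huh7 and rose in Huh1 was BBC3, which encodes the pro-apoptotic BH3-only protein PUMA and is a p53 target. BBC3 read 0.52, 0.70 and 0.60 in the Huh1 controls and 1.83, 2.20 and 2.14 after 5-FU. In Huh7 it read 2.97, 3.00 and 3.04 in the controls and 1.51, 2.06 and 1.84 after 5-FU. The controls of the lines were far apart, and the 5-FU arrays of both lines met at similar levels in between. The change was 1.45 in Huh1 and -1.20 in Huh7, and the line difference was -2.65 ± 0.20 (SE; limma adjusted p = 2.23e-05).

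BHLHE40, a circadian and hypoxia-responsive repressor, had the same form. It read -0.82, -0.78 and -0.81 in Huh1 controls and 0.46, 0.69 and 0.65 after 5-FU. In Huh7 it read 1.01, 1.02 and 1.00 in controls and 0.00, -0.37 and -0.22 after 5-FU. Neither line had overlapping control and treated arrays, as the rule for naming these genes required. The line difference was -2.61 ± 0.13 (SE; limma adjusted p = 3.23e-06). FBXL16, an F-box protein gene, had the largest line difference of the 6 genes named in this direction. Its Huh7 levels were 2.19, 2.09 and 2.19 in controls and -1.90, -1.14 and -1.29 after 5-FU, whereas Huh1 levels were -1.28, -1.47 and -1.48 in controls and -0.84, 0.16 and 0.04 after 5-FU. All Huh7 5-FU arrays thus lay far below their controls while all Huh1 5-FU arrays lay above theirs, with the first Huh1 5-FU array closest to the controls. The line difference was -4.80 ± 0.37 (SE; limma adjusted p = 2.43e-05).

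KREMEN2, which encodes a receptor for the Wnt antagonist DKK1, changed by 1.86 in Huh1 and -1.71 in Huh7. MORN4 changed by 1.17 and -1.62, and LMTK3, a membrane-associated kinase gene, by 1.15 and -1.47. Control and 5-FU arrays did not overlap in either line for these 3 genes, which the rule for naming opposed genes required.

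In the other direction, S100A9, a calcium-binding protein of inflammation, read 0.43, 1.28 and 1.19 in Huh1 controls and -1.0, -0.70 and -0.63 after 5-FU. In Huh7 it read -2.82, -2.99 and -2.98 in controls and -1.62, -0.58 and -1.10 after 5-FU. A wide gap between the control groups was thus closed from both sides, and the line difference was 3.58 ± 0.39 (SE; limma adjusted p = 0.000145). The microtubule-associated protein gene EML1 read -2.11, -1.93 and -1.94 in Huh1 controls and -3.37, -3.80 and -3.61 after 5-FU, against -0.56, -0.51 and -0.54 in Huh7 controls and 0.55, 0.26 and 0.39 after 5-FU. Here the gap widened, since EML1 was already higher in Huh7, and both of its probes gave a higher change in Huh7 (2.53 and 2.90). PRSS35, a serine protease-like gene, changed by -1.74 in Huh1 and 2.45 in Huh7. The long noncoding RNA LHFPL3-AS2 changed by -1.04 and 2.10, and CLRN3, a clarin family gene, by -1.01 and 0.95. OLFML3, an olfactomedin-like secreted protein gene, rose by 2.62 in Huh7, but its fall of 1.28 in Huh1 rested on 2 arrays: the 5-FU arrays read -3.21, -4.94 and -4.86, and the controls -3.09, -2.89 and -3.18.

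All 12 named opposed genes kept opposite signs in the 2 lines on the spike-in scale, and 6 of them (S100A9, PRSS35, EML1, KREMEN2, FBXL16 and MORN4) were also called there in both lines. The other 6 (OLFML3, LHFPL3-AS2, CLRN3, BHLHE40, BBC3 and LMTK3) kept a call in a single line on that scale. Spike-in scaling raises the changes by about 0.83 in Huh1 and 0.98 in Huh7. The 12 genes were chosen for the size of the smaller of their changes, so their kept signs follow from that choice. They do not speak for the opposed genes as a set, of which 3 of 62 and 20 of 99 remained opposed.

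**Figure D2:**
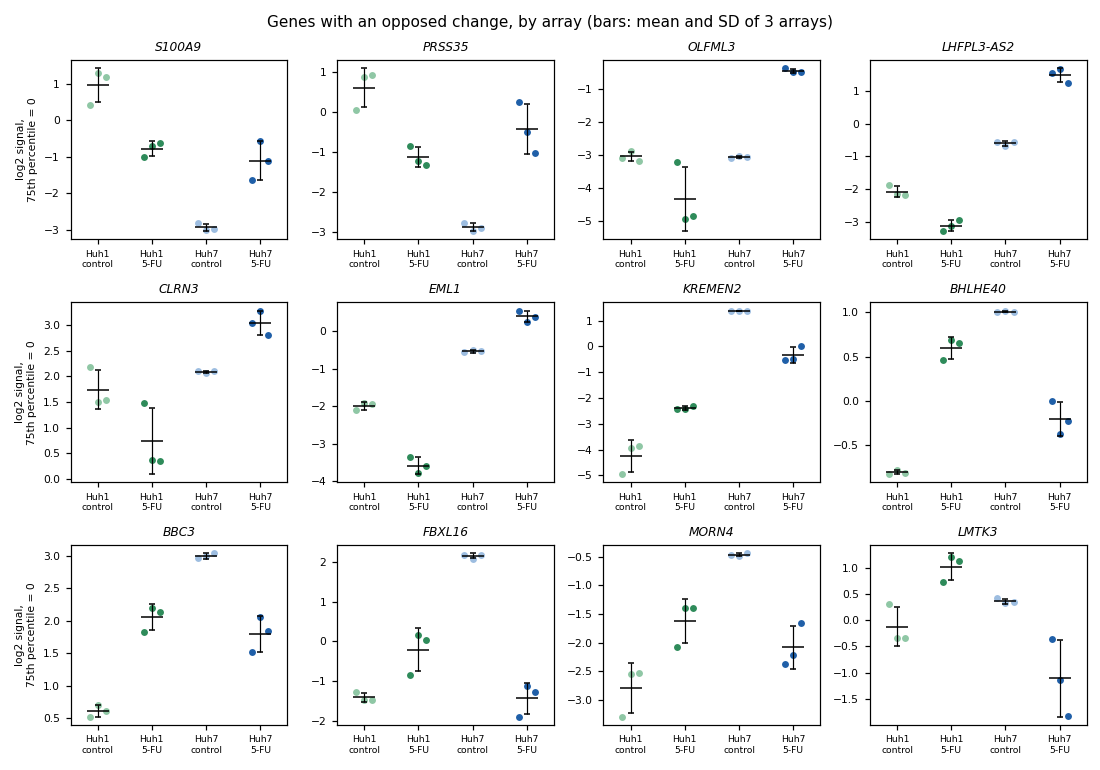
Log2 signal relative to the array's 75th percentile (y axis) for the 12 named opposed genes in the 4 groups (x axis); points are arrays and bars are the mean and SD of 3 arrays. The first 6 panels fell in Huh1 and rose in Huh7, and the last 6 did the reverse, as for BBC3 at 0.61 to 2.06 in Huh1 and 3.00 to 1.80 in Huh7 (group means).

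Changes limited to a line were counted next. In Huh7, 197 genes rose (1.27% of genes tested) and 213 fell (1.37%) without a change beyond 1.5-fold in Huh1. In Huh1, 56 genes rose (0.361%) and 37 fell (0.238%) without such a change in Huh7, and these numbered 92 and 69 without the first Huh1 5-FU array. Leaving out each array in turn gave 41 to 92 that rose and 26 to 69 that fell in Huh1 only. Of the 503 genes, 106 passed the test in the other line as well, at changes no larger than 0.46, so that limited means small in the other line, not absent. A further 186 genes rose and 80 fell in Huh7 but were below background in Huh1, and 70 rose and 21 fell in Huh1 but were below background in Huh7. On the spike-in scale none of the 503 genes kept this class and 325 other genes met its definition.

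The 5 named rises limited to Huh7 were of genes that were much dimmer in Huh7 controls than in Huh1, except CTSE. LYPD1, a GPI-anchored Ly6-family protein gene, read -4.29, -4.87 and -4.85 in Huh7 controls and 0.89, 1.05 and 0.76 after 5-FU, while the 6 Huh1 arrays stayed between 3.35 and 3.95. ANXA1, the phospholipid-binding protein annexin A1, read -3.60, -3.75 and -3.91 in Huh7 controls and 0.40, 0.66 and -0.05 after 5-FU, with Huh1 between 5.15 and 5.60. Both genes thus moved part of the way toward the Huh1 level. The line differences were 5.71 ± 0.26 for LYPD1 (SE; limma adjusted p = 1.78e-06) and 4.24 ± 0.24 for ANXA1 (SE; limma adjusted p = 5.36e-06). The serpin gene SERPINB8 rose by 3.35 and the nucleotide receptor gene P2RY2 by 3.17 in Huh7. CTSE, the aspartic protease cathepsin E, rose by 3.40 in Huh7 from -3.69 ± 0.08 to -0.29 ± 0.09 (SD, n = 3 each), while Huh1 stayed at -4.60 ± 0.10 and -4.63 ± 0.06 (SD, n = 3 each).

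The named falls limited to Huh7 included DDIT4, an inhibitor of mTORC1 that is induced by ATF4 and by hypoxia. DDIT4 read 4.78, 4.82 and 4.79 in Huh7 controls and 1.20, 1.44 and 1.46 after 5-FU, while Huh1 read 1.99, 2.02 and 1.94 in controls and 1.66, 1.56 and 1.51 after 5-FU. The treated Huh7 arrays were below the Huh1 controls, from which the Huh7 controls had stood far apart. The hypoxia-inducible gene ANKRD37 fell by 3.77 in Huh7, from a mean of 0.74 to -3.03, with an estimate of -0.22 in Huh1 and its interval from -0.52 to 0.08. TNNI3, cardiac troponin I, fell by 3.55, and the transcript FLJ43315 by 3.18. JAK3, a cytokine receptor-associated kinase, fell by 4.28 at its brightest probe, but its other probe gave a line difference of -0.72 in place of -4.02, and only 1 of the 3 Huh7 5-FU arrays was well above background.

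The named rises limited to Huh1 included 2 stress-related transcription factors. ATF3, a stress-induced factor, read 2.19, 2.19 and 2.24 in Huh1 controls and 5.05, 4.28 and 4.32 after 5-FU, against 2.59, 2.59 and 2.59 in Huh7 controls and 2.57, 2.55 and 2.70 after 5-FU. DDIT3, also known as CHOP and active in stress-induced cell death, read 0.35, 0.39 and 0.35 in Huh1 controls and 2.21, 2.76 and 2.75 after 5-FU, against 2.07, 2.09 and 2.12 in Huh7 controls and 1.97, 2.19 and 2.11 after 5-FU. Huh7 was flat for both genes on this scale, and DDIT3 in treated Huh1 rose to about the level that Huh7 already had in its controls. The line differences were -2.32 ± 0.24 for ATF3 (SE; limma adjusted p = 0.000109) and -2.22 ± 0.19 for DDIT3 (SE; limma adjusted p = 4.11e-05). The 4 ATF3 probes ranged from -2.55 to -0.50. The adhesion receptor gene ADGRV1 rose by 1.91 in Huh1, with 0.30 in Huh7. LRRC17 was not well above background in Huh1 controls and rose there at least 2.94-fold, while Huh7 lay between -4.64 and -4.15 on all 6 arrays.

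The falls limited to Huh1 included a trafficking gene and developmental genes. RAB34, a small GTPase of the Golgi and of cilia, was well above background in Huh1 controls at -4.22 ± 0.27 (SD, n = 3) and below background after 5-FU, a fall of at least 7.85-fold, whereas Huh7 stayed at 2.12 to 2.21. CCDC69 fell by 1.80, the homeobox gene HOXA13 by 1.57 and the Wnt receptor gene FZD7 by 1.55 in Huh1, with changes of 0.14, -0.09 and 0.10 in Huh7.

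Genes below background in the other line had some of the largest changes; a change in the other line could not be measured for them. The long noncoding RNA FILNC1 rose at least 30-fold and the muscarinic receptor gene CHRM1 at least 11.8-fold in Huh7. EPO, which encodes the hypoxia-induced hormone erythropoietin, fell by 4.30 in Huh7, from -1.65, -1.67 and -1.64 to -5.94, -5.95 and -5.95, with 2 of 3 treated arrays well above background. MS4A10 fell there by 5.48, with only 1 treated array well above background. In Huh1, the keratin-associated protein gene KRTAP1-1 rose at least 42.7-fold and SPATA31D1 at least 7.32-fold, while OR6X1, an olfactory receptor gene, fell at least 91.5-fold from -1.44, 1.12 and -1.70. CACNG1, a calcium channel subunit gene, fell there by 3.45, with 1 of its 3 treated arrays well above background. KRTAP1-1, SPATA31D1 and OR6X1 belong to multigene families, and signal shared between copies was not tested.

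ATF4 targets showed the broadest line difference of the 32 gene lists examined. The 27 genes tested include ATF4 itself, which was called lower, and all 27 are termed targets here. Of these, 23 were called lower and 1 higher (88.9% called, against 40.4% of all genes), with a median line difference of -1.24 against 0.02 over all genes. In Huh7, 18 fell and 3 rose, with a median of -1.01. In Huh1, 7 fell and 11 rose, with a median of 0.07. Leaving out each array in turn gave 22 to 24 lower calls, and the spike-in scale gave 19 lower and 1 higher. On that scale the Huh7 median was -0.03, with 11 targets higher and 12 lower, and the Huh1 median was 0.90, with 23 higher and 0 lower. Thus the contrast between lines held on both scales while the direction within each line did not.

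The gap had existed before treatment. Of the 27 targets, 22 read higher in Huh7 controls than in Huh1 controls, with a median gap of 1.11, and 8 read higher in Huh7 after 5-FU, with a median gap of -0.32. The gap was smaller after 5-FU for 20 of the 27. The signed change of a gap is the line difference itself, so that this is not a separate result. Other lists varied, with 20 of 27 nucleotide enzymes, 24 of 31 plasma protein genes and 6 of 29 mitotic genes. The share over all genes was not counted.

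Enzymes of amino acid synthesis and mitochondrial folate metabolism are given together here, a grouping made after their values were seen. ASNS, asparagine synthetase, read 6.80, 6.79 and 6.89 in Huh7 controls and 3.44, 4.20 and 4.17 after 5-FU. In Huh1 it read 3.99, 4.98 and 4.92 in controls and 4.33, 4.52 and 4.50 after 5-FU, and these overlapped. The line difference was -2.71 ± 0.38 (SE; limma adjusted p = 0.000562). MTHFD2, a mitochondrial folate enzyme, had log2 changes of -1.60 in Huh7 and -0.06 in Huh1, and PHGDH, the first enzyme of serine synthesis, by -1.01 and 0.07. PSAT1, also of serine synthesis, fell in both, by 1.35 in Huh7 and 0.59 in Huh1, and ALDH1L2, a mitochondrial folate enzyme, by 3.01 and 1.04, with 1 of 3 treated arrays of each line well above background. CTH, of cysteine synthesis, fell by 2.32 in Huh7 and 0.45 in Huh1. PSPH, the last enzyme of serine synthesis, was not called, with a line difference of 0.04 ± 0.22 (SE). SHMT2, a mitochondrial serine and folate enzyme from the list of nucleotide enzymes, was not called either, with -1.05 in Huh7 and -1.12 in Huh1.

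Among the transporters, SLC7A11, the cystine carrier, fell by 2.93 in Huh7 and 1.03 in Huh1, SLC7A1, the carrier of cationic amino acids, had log2 changes of -1.42 and -0.18, and SLC7A5, of large neutral amino acids, of -1.36 and -0.47. SLC3A2, the heavy chain that pairs with SLC7A5 and SLC7A11, had 0.38 and 0.96 and was not called for the line difference.

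Feedback and secreted members of the list come next. CHAC1, a glutathione-degrading enzyme, read 2.89, 2.87 and 2.93 in Huh7 controls and -1.05, 0.31 and 0.07 after 5-FU. In Huh1 it read 0.08, 0.88 and 0.81 in controls and 1.19, 1.19 and 1.25 after 5-FU. Its rise of 0.62 in Huh1 did not pass the test (limma adjusted p = 0.135), whereas the line difference of -3.74 ± 0.45 did (SE; limma adjusted p = 0.000257). TRIB3, a pseudokinase that restrains the response, changed by 0.80 in Huh1 and -0.87 in Huh7, and STC2, a secreted glycoprotein, by 1.07 and -2.84, and both were opposed. The hormone gene FGF21 also met the definition, but it was below background in Huh1 controls, from which it rose at least 1.75-fold, and well above background on 1 of 3 Huh7 5-FU arrays. GDF15, a stress cytokine and also a p53 target, rose by 3.00 in Huh1 and 0.71 in Huh7, and PPP1R15A, which restores translation, by 2.16 and 1.06.

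ATF4 itself fell by 0.95 in Huh7 and 0.45 in Huh1, with a line difference of -0.50 ± 0.13 (SE; limma adjusted p = 0.0144). Of its dimerization partners, CEBPB was called lower at -0.52 and CEBPG at -0.49. ATF5, a related factor, was the exception in the list: it rose by 2.33 in Huh7 and 0.81 in Huh1. On the DSF arrays, which were outside this fit, the Huh7 mean lay between the control and 5-FU means for 16 of the 27 targets, as for ASNS at 6.46, DDIT4 at 3.10 and CHAC1 at 1.31. It lay above both for 9, as for MTHFD2 at 4.01 and ATF3 at 4.17, and below both for 2.

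**Figure D3:**
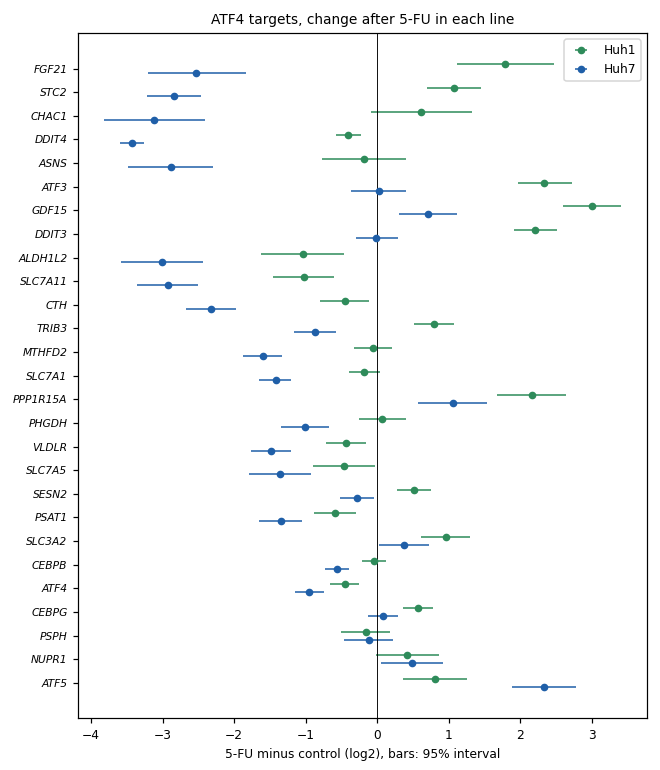
Change after 5-FU (x axis, log2, with 95% interval) in Huh1 and Huh7 for the 27 ATF4 targets, ATF4 itself among them (y axis), ordered by the line difference. The Huh7 points lie to the left of the Huh1 points for most targets, as for STC2 at a line difference of -3.91, with ATF5 at 1.52 on the other side; FGF21, drawn first, was below background in Huh1 controls and has no exact position.

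Several tRNA charging enzymes are known ATF4 targets as well. Of 20 cytosolic tRNA synthetases 9 were called lower and 3 higher, with a median line difference of -0.25. CARS1, GARS1, YARS1 and LARS1, the enzymes for cysteine, glycine, tyrosine and leucine, fell in Huh7 only by the definition above. CARS1 read 0.20, 0.22 and 0.16 in Huh7 controls and -1.50, -1.25 and -1.39 after 5-FU, with Huh1 between -0.94 and -0.37 on all 6 arrays.

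Promoters of these genes are shown because most ATF4 targets were called lower for the line difference. The C/EBP-ATF response element was searched as TGATGNAAN on both strands of the RefSeq promoters (GRCh38.p14, 250 bases before to 50 after the start). It was found in 1002 of 27305 promoters (3.67%) and in 240 of 12241 promoters of genes tested (1.96%). Of 23 ATF4 targets with a promoter entry 6 held it (26.1%), namely ASNS, CHAC1, SLC3A2, SLC7A1, ATF3 and FGF21. Of 16 tRNA synthetases 6 held it (37.5%), namely AARS1, CARS1, IARS1, MARS1, NARS1 and TARS1. Among members called lower, it was found in 5 of 21 targets (23.8%) and in 3 of 7 synthetases (42.9%), close to the shares of the whole lists. Among the opposed genes that fell in Huh7, 3 of 73 promoters held it (4.11%). Capitals mark the match in the promoters of CHAC1 (chr15:40953221-40953520, plus strand), ASNS (chr7:97872359-97872658, minus strand) and CARS1 (chr11:3057374-3057673, minus strand), where it began 210, 68 and 3 bases before the start. A match describes these letters only.
CHAC1: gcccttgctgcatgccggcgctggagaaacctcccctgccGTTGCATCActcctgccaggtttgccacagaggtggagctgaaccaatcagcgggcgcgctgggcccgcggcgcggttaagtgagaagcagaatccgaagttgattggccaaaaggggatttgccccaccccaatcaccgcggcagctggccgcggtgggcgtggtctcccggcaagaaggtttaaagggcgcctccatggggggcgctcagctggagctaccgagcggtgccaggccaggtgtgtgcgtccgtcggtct
ASNS: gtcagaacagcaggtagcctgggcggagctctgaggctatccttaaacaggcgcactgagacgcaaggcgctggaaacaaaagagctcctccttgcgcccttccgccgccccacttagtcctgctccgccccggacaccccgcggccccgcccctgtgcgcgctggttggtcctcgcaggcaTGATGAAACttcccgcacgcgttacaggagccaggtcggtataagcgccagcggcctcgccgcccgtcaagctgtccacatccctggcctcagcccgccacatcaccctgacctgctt
CARS1: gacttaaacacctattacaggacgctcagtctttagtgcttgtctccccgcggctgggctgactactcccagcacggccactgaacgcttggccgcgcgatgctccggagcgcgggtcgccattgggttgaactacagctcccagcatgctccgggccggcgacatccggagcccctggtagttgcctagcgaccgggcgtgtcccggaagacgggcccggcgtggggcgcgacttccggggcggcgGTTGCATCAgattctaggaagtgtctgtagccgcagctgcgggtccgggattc

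Genes of DNA replication and the G1/S transition that were called all had a higher change in Huh7. Of 31 genes tested, 21 were called higher and 0 lower (67.7% called), with a median line difference of 0.51. At an unadjusted limma p under 0.05 the number lower was also 0, and 20 to 22 were called higher without each array in turn. In Huh7, 25 rose and 1 fell, while in Huh1 10 rose and 9 fell. Of all genes, 32.0% rose and 30.3% fell in Huh7, and 24.4% rose and 28.1% fell in Huh1. CCNE2, cyclin E2, rose by 2.23 in Huh7 and 0.99 in Huh1, and the replication licensing factor CDC6 by 2.08 and 0.86. E2F1, a transcription factor of S-phase entry, read 2.54, 2.54 and 2.55 in Huh7 controls and 3.29, 3.48 and 3.27 after 5-FU, and 2.45, 2.14 and 2.14 in Huh1 controls and 2.05, 1.91 and 1.87 after 5-FU. E2F1 thus rose in Huh7 and fell by 0.29 in Huh1, with a line difference of 1.1 ± 0.14 (SE; limma adjusted p = 0.000333). The phosphatase gene CDC25A and E2F2 rose in Huh7 only by the definition above, by 1.22 and 1.1. On the spike-in scale E2F1 and CDC25A rose in Huh1 too, by 0.53 and 0.98, against 1.79 and 2.2 in Huh7. Their direction in Huh1 thus depends on the scale. Of the MCM helicase genes, MCM6 had a line difference of 0.96, MCM5 of 0.80 and MCM4 of 0.76.

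The E2F site was searched as TTTCCCGC, TTTGGCGC, TTTCGCGC or TTTGCCGC on both strands, where matches on opposite strands can overlap. It was found in 908 of 27305 promoters (3.33%), in 611 of 12241 promoters of genes tested (4.99%) and in 17 of 25 promoters of this list (68.0%). The promoters of E2F1 (chr20:33686336-33686635, minus strand, 2 matches) and MCM6 (chr2:135876394-135876693, minus strand, 4 matches in overlapping pairs) show it in capitals.
E2F1: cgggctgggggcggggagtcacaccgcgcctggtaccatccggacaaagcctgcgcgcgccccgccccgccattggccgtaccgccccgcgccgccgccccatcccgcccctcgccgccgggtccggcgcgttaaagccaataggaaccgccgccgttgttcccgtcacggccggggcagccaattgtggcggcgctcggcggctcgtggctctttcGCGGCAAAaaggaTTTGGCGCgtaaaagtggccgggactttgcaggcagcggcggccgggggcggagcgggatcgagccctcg
MCM6: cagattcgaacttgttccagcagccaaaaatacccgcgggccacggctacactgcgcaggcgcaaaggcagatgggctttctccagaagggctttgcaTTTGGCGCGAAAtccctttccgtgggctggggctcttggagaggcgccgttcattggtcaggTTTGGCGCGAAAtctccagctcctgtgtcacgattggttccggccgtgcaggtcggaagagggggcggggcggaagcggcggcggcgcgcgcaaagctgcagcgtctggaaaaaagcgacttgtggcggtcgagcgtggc

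Mitotic genes that were called also all had a higher change in Huh7, where fewer of them fell. Of 29 tested, 20 were called higher and 0 lower (69.0% called), with a median line difference of 0.43, and the number lower at an unadjusted limma p under 0.05 was also 0. In Huh1 25 fell and 0 rose, with a median of -0.61, and in Huh7 15 fell and 3 rose, with a median of -0.19; on the spike-in scale these medians were 0.22 and 0.79, so that the fall itself depends on the scale. PLK1, polo-like kinase 1, read 0.40, 0.62 and 0.56 in Huh1 controls and -1.56, -1.27 and -1.30 after 5-FU, and 0.79, 0.69 and 0.70 in Huh7 controls and 0.03, 0.09 and -0.06 after 5-FU. Both lines fell without overlap, Huh1 further, with a line difference of 1.20 ± 0.13 (SE; limma adjusted p = 0.00015). CCNB1, cyclin B1, and CENPE, a kinetochore motor, fell in Huh1 only by the definition above (-1.35 and -1.23, against -0.33 and -0.39 in Huh7).

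Replication-dependent histone genes ran the other way. Of 43 tested, 25 were called lower and 4 higher (67.4% called), with a median line difference of -0.43. They fell in both lines, 39 in Huh1 and 41 in Huh7, by medians of 0.73 and 1.18, and on the spike-in scale the medians were 0.10 and -0.20. The linker histone H1-3 fell by 2.59 in Huh7 and 1.00 in Huh1, and H1-2 by 1.64 and 0.29. H1-5 and H2AC16 fell more in Huh1. Histone genes are near-identical copies, so single members are uncertain. The number called lower was 16 without replicate 3 of Huh1 5-FU or without replicate 3 of the Huh7 control, and 7 on the spike-in scale.

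Of 27 enzymes of fluoropyrimidine and nucleotide metabolism, 10 were called higher and 2 lower, which at 44.4% is near the 40.4% of all genes, with a median line difference of 0.29. TYMS, the thymidylate synthase that 5-FU metabolites block, read 4.55, 4.52 and 4.57 in Huh7 controls and 5.16, 5.17 and 5.05 after 5-FU, and 5.25, 5.15 and 5.13 in Huh1 controls and 5.13, 5.01 and 5.00 after 5-FU. It rose in Huh7 to about the level of Huh1. TK1, which salvages thymidine, had log2 changes of 0.91 in Huh7 and -0.02 in Huh1, DUT, which clears dUTP, of 0.64 and -0.18, and the ribonucleotide reductase gene RRM2 of 1.16 and 0.29. DPYD, the enzyme that degrades 5-FU, had a line difference of -1.44, but its other probe gave 0.30. TYMP, which can activate 5-FU, was not called, with -0.03. In the list of base excision and checkpoint genes 12 of 27 were higher and 2 lower (51.9% called), the latter CHEK2 and ATR.

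The p53 targets split. Of 29 tested, 14 were called lower and 5 higher (65.5% called), with a median line difference of -0.48; on the spike-in scale 8 were called lower. Beside BBC3 and GDF15, the death receptor genes FAS and TNFRSF10B and the kinase gene PLK3 rose in Huh1, by 1.27, 0.92 and 1.62, against estimates of -0.77, -0.06 and 0.02 in Huh7 that did not pass the test. TP53I3, a quinone oxidoreductase-like gene, did the reverse: it read 2.02, 2.03 and 2.10 in Huh7 controls and 3.60, 3.85 and 3.60 after 5-FU, and 5.04, 4.97 and 4.83 in Huh1 controls and 4.58, 4.60 and 4.61 after 5-FU. PLK2 rose in both, by 2.32 in Huh7 and 1.39 in Huh1. CDKN1A, the CDK inhibitor p21, and MDM2, the ubiquitin ligase of p53, rose in both lines, and their line differences of 0.24 ± 0.18 and 0.39 ± 0.22 (SE) were not called. Of the apoptosis regulators, BIK rose by 3.48 in Huh7 and 0.91 in Huh1, and BMF rose by 1.04 in Huh1 only.

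Of 22 hypoxia and glycolysis genes, 13 fell and 3 rose in Huh7, and 12 fell and 4 rose in Huh1, where 30.3% and 28.1% of all genes fell. For the line difference 9 were called lower and 3 higher (54.5% called, against 40.4% of all genes), with a median of -0.29. ANKRD37, PFKFB4, BNIP3 and VEGFA fell in Huh7 only by the definition above. VEGFA, the angiogenic factor, read 3.68, 3.68 and 3.62 in Huh7 controls and 2.52, 2.66 and 2.16 after 5-FU, with Huh1 between 1.23 and 1.45 on all 6 arrays. PDK1, which restrains pyruvate entry to mitochondria, fell by 3.04 in Huh7 and 0.82 in Huh1. EPO, described above, was dim in Huh1. PFKP, a phosphofructokinase gene, went against the list and rose by 2.27 in Huh7 only.

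Among 30 members of the sterol and fatty acid pathways, 14 were called lower and 0 higher (46.7% called, against 40.4% of all genes). The number higher at an unadjusted limma p under 0.05 was also 0. The median line difference was -0.37, and on the spike-in scale 7 were called lower. MSMO1, a sterol oxidase, had log2 changes of -1.48 in Huh7 and 0.26 in Huh1, HMGCS1, an early enzyme of the pathway, of -0.65 and 0.45, SQLE, squalene epoxidase, of -0.45 and 0.46, and the feedback regulator INSIG1 of -0.75 and 0.56. DHCR7, of the last step to cholesterol, rose by 0.89 in Huh1, with an estimate of -0.07 in Huh7. In controls 26 of the 30 genes had read higher in Huh7 than in Huh1, and the gap was smaller after 5-FU for 28. As for the ATF4 targets, the change of the gap is not a result separate from the line difference.

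Of 31 secreted plasma protein genes of the liver, 20 rose and 5 fell in Huh7, and 8 rose and 4 fell in Huh1. For the line difference 11 were called higher and 4 lower (48.4% called, against 40.4% of all genes). The median was 0.60, and 19 were called higher without the first Huh1 control array. The heme carrier gene HPX rose by 2.79 in Huh7, and the acute-phase genes ORM1 and ORM2 rose by 1.08 and 1.31, with estimates of 0.52, -0.03 and -0.21 in Huh1 that did not pass the test. The fibrinogen genes split, with line differences of -0.95 for FGA, -0.77 for FGG and 0.62 for FGB. AFP, the fetal albumin, rose by 0.90 in Huh1 and fell by 0.40 in Huh7. Of 16 bile acid genes 7 were called higher and 2 lower (56.2% called). SLC51B, a basolateral bile acid exporter, read 1.79, 1.75 and 1.79 in Huh7 controls and 3.96, 4.52 and 4.30 after 5-FU, and rose by 2.48 in Huh7 and 0.66 in Huh1. The bile salt pump gene ABCB11 and the conjugating enzyme gene BAAT were below background in Huh7 controls and rose there at least 2.99-fold and 4.14-fold. Under another background correction the calls of ABCB11, BAAT and CYP7A1 were lost.

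Secreted signals and their targets included the TGF-beta and BMP list, with 10 of 24 called higher, 0 lower (2 at an unadjusted limma p under 0.05) and a median of 0.52. At 41.7% called, this list was near the 40.4% of all genes. TGFBI, an extracellular matrix protein induced by TGF-beta, read 1.04, 1.04 and 1.03 in Huh7 controls and 3.45, 3.33 and 3.39 after 5-FU, while Huh1 read 7.39, 7.37 and 7.36 in controls and 6.96, 6.87 and 6.92 after 5-FU. TGFBI thus rose in Huh7 from a level far under that of Huh1, with a line difference of 2.81 ± 0.08 (SE; limma adjusted p = 1.13e-07). The ligand gene BMP4 had log2 changes of 1.73 in Huh7 and 0.10 in Huh1, BMP2 of 1.78 and 1.06, and the inhibitory gene SMAD7 of 0.74 and -0.29. Among NF-kappaB genes and chemokines, 6 of 22 were called higher and 5 lower, and the median of -0.05 changed sign under quantile normalization, spike-in scaling, normexp and testing without a filter. The number higher was 3 without replicate 2 of the Huh1 control or replicate 1 or 3 of the Huh7 control. The cytokine genes IL6 and CCL2 rose in Huh7 by 3.80 and at least 7.66-fold, both below background in Huh1, and LTB rose by 2.55, whereas the chemokine gene CCL20 and SOD2, a mitochondrial antioxidant enzyme, were limited to Huh1 at 1.62 and 1.04.

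Fibroblast markers were read beside these genes. Of 6 fibroblast markers, 4 (COL1A1, DCN, LUM and PDGFRB) were well above background on all Huh7 5-FU arrays, 2 in Huh7 controls and 1 in each Huh1 group. Their summed linear signal, over 4 markers tested and in units of the 75th percentile, was 2.99 to 3.18 on the Huh7 5-FU arrays, 0.497 to 0.527 in Huh7 controls, 0.965 to 1.53 in Huh1 controls and 1.4 to 2.22 in Huh1 5-FU arrays. Most of this sum was LUM. Its log2 mean on Huh7 5-FU arrays was 1.49, against -3.14 for DCN, -3.34 for COL1A1 and -5.07 for PDGFRB. The change of COL1A1 in Huh7 was not called. Leukocyte and endothelial markers above background were 4 to 5 of 6 and 2 to 3 of 5 in each group, and the summed leukocyte signal was 1.93 to 1.96 in Huh7 controls and 2.88 to 4.47 in Huh7 5-FU arrays. The part of these markers in the results was not tested.

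Few of the genes on which the study centered were called. Of 13 tested, 1 was called higher and 2 lower, 23.1% against 40.4% of all genes. EPCAM, the surface protein used for sorting, had a line difference of -0.14 ± 0.29 (SE; limma adjusted p = 0.737), and GPC3, an oncofetal glypican, of 0.02 ± 0.23 (SE; limma adjusted p = 0.949). CDK2 rose by 0.91 in Huh7 and 0.38 in Huh1, AFP is given above, and PROM1, which encodes CD133, rose by 0.85 in Huh1 with an estimate of 0.10 in Huh7. The line difference of PROM1 was -0.75 (limma adjusted p = 0.0418) and was 0.01 after normexp, and its call was lost in 9 of the 12 fits that left out an array. The p38 gene MAPK14, the antioxidant genes GCLM and GSS, and ALDH1A1, ALDH2, ANPEP and CDH1 were not called, at line differences from -0.18 to 0.38, nor was CDKN1C, which was below background in Huh1 controls.

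**Figure D4:**
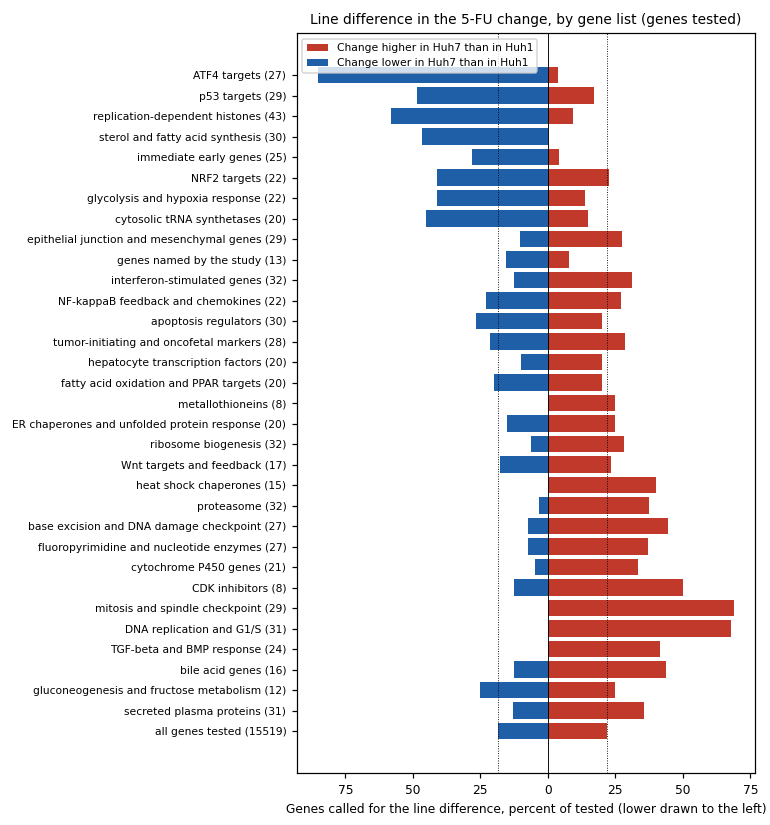
Genes called for the line difference as a percent of those tested (x axis, called lower to the left and called higher to the right of 0) for 32 gene lists and all genes (y axis, number tested in brackets); dotted lines mark all genes at 22.1% higher and 18.3% lower. ATF4 targets have 23 of 27 called lower, and the replication and mitosis lists have 21 of 31 and 20 of 29 called higher with 0 lower.

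Among the other lists, NRF2 targets had 5 of 22 called higher and 9 lower (63.6% called), with 5 lower on the spike-in scale, and CDK inhibitors had 4 of 8 higher and 1 lower (62.5% called). Cytochrome P450 genes had 7 of 21 higher and 1 lower, among them CYP3A5 and CYP3A7, near-identical paralogs that cannot be told apart here and that rose by 2.60 and 2.37 in Huh7 and 1.04 and 0.96 in Huh1. Heat shock chaperones had 6 of 15 higher and 0 lower (1 at an unadjusted limma p under 0.05), and the proteasome 12 of 32 higher and 1 lower, with 5 to 13 higher when each array was left out. Immediate early genes had 1 of 25 higher and 7 lower, and the interferon-stimulated genes 10 of 32 higher and 4 lower, with 5 to 10 higher when each array was left out. The transcription factor gene MYC, of the immediate early genes, fell by 1.91 in Huh7 and 0.41 in Huh1, and KLF2, another of these genes, rose by 1.76 in Huh7. Apart from NRF2 targets and CDK inhibitors, the lists of this paragraph were called at about the 40.4% of all genes or less. The share called was 38.1% for cytochrome P450 genes, 40.6% for the proteasome, 43.8% for interferon-stimulated genes and 32.0% for immediate early genes.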

How the data were processed

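Total RNA of sorted EpCAM+ cells was measured on Agilent 8x60K one-color arrays designed on hg19. The authors deposited each array's Feature Extraction (10.7.1.1 in the file headers) spot intensity, background-subtracted by the scanner software, and a table of normalized linear intensity, which the authors divided by the array's upper quartile; after log2, 100% of its values lay within 0.05 of those computed here.

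Of 42405 probes, 78 with flagged spots were left out, and 25736 were named through their RefSeq accession (GRCh38.p14, used for names and promoters). The processed intensity was put on a log2 scale and the 75th percentile subtracted. A probe was tested (29033 in all) when some group of the 4 had it well above background throughout, and a gene was read by its brightest tested probe. The 4 group means were fitted with limma 3.58.1 (R 4.3.3, lmFit and eBayes), with Benjamini-Hochberg adjustment over all tested probes and two-sided tests. Limits written as "at least" set the brighter group's mean against the dimmer group's, where each array of the latter contributed its dimmest detected signal, or that of the probe itself if brighter. The scripts were tested on simulated data. The number of arrays limits the precision.

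Samples were grouped by their labels. Members and gene lists were chosen with earlier results of these data known. Genes named as opposed (6 per direction), limited to a line (5 per line and direction) or dim in the other line (2 per line and direction) were those with the largest changes whose arrays did not overlap and whose probes did not disagree in called sign. Opposed genes were ranked by the smaller of their changes, with the probe above background on all 12 arrays, and LOC, XIST and Y-linked symbols were left out. Up to 4 members of each list were named by the size of the line difference, together with the genes the study names; further list members were chosen after their values were seen. Alternatives were quantile, median and spike-in scaling, normexp (offset 50) on the median spot and background signals, the log2 of the authors' normalized table, other filters, all 18 arrays, a replicate block, trended and robust eBayes, and leaving out each array. All 18 arrays with slide as a block were added after the data were seen. Some genes that these rules select are not reported here.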

Additional observations from a re-analysis of the deposited data

Results flagged for a closer look

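The effect of 5-FU differed between the lines, by the test of the difference itself, for 10027 probes, and 161 genes with opposed and 503 genes with line-limited responses followed from it. Among the named opposed genes that rose in Huh7 and fell in Huh1, the limma line differences were 3.58 for S100A9, 4.19 for PRSS35, 3.91 for OLFML3, 3.14 for LHFPL3-AS2, 1.95 for CLRN3 and 2.53 for EML1. Among those that fell in Huh7 and rose in Huh1, they were -3.57 for KREMEN2, -2.61 for BHLHE40, -2.65 for BBC3, -4.80 for FBXL16, -2.79 for MORN4 and -2.63 for LMTK3. Each group held 3 arrays, and no array was tested as standing apart from its group.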

How the results depend on the processing

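The number of probes called for the line difference, of opposed genes and of line-limited genes stayed within 1.5 times its value under the alternatives run, except in the following. Spike-in scaling gave 22750 probes called for 5-FU in Huh1 and 325 line-limited genes, and normexp gave 99 opposed genes; the cause was not tested. Leaving out each array gave 8215 to 10691 probes called for the line difference, 119 to 213 opposed genes, 406 to 538 line-limited genes, and 11114 to 14534 probes called for 5-FU in Huh1 and 14688 to 17309 in Huh7. Replicate numbers did not pair the samples: deviations from the group means correlated at -0.078 to 0.083 between samples with the same number and at -0.085 to 0.102 between others. With the replicate number as a block, 9287 probes were called for the line difference, of which 9015 were among the 10027, with 156 opposed and 486 line-limited genes. A slide block could not be fitted within the 12 arrays; with all 18 arrays and slide as a block, 11338 probes, 181 opposed and 555 line-limited genes were called.

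Of 164 single-gene line differences, 154 were called; 12 genes lost the call in at least 1 alternative that kept all arrays, and 8 without at least 1 array. Line differences that changed sign belonged to genes that were not called, apart from PROM1 and HERC5. Quantile normalization gave 0.14 for EPCAM and -0.15 for GCLM. Spike-in scaling gave 0.10 for CDH1, 0.01 for EPCAM and 0.05 for ALDH1A1. Normexp gave 0.36 for HERC5, 0.18 for CDKN1C, 0.01 for PROM1 and -0.01 for GCLM. Leaving out each array gave -0.08 to 0.23 for GPC3, -0.30 to 0.24 for CDH1, -0.35 to 0.11 for EPCAM and -0.07 to 0.07 for GCLM. The median line difference kept its sign in all settings for 23 of the 32 lists. Line coincided with slide, the directions within a line depend on the scale, and probes near background carry bounds only.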
